A study of Homo sapiens with 12 samples.

Results

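The 51 genes described here carry cells through G2, mitosis and cytokinesis. They were taken from a fixed list of gene symbols (CDK1 and its cyclins, Aurora and chromosomal passenger genes, condensin, mitotic kinesins, spindle, anaphase and cytokinesis genes), by a rule that uses no measured value. All 51 were found by symbol among the 60664 Ensembl gene identifiers of the deposited table. Of these, 44 averaged at least 1 TPM over the 12 libraries and were tested. TPM is the abundance of a transcript per length, scaled to a fixed total in each library. The other 7 (KIF14, KIF15, KIF18A, KIF20B, HMMR, NCAPG and DLGAP5) never exceeded 2.96 TPM and are given as levels, NCAPG also within a preset pair.

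RNA was sequenced from 2 cultured hepatoma lines, Huh-7 and MHCC-97H, both labelled wild type and grown in DMEM with fetal bovine serum. Each line received either si-NC, a control small interfering RNA, or si-CENPU, which targets CENPU, a subunit of the inner kinetochore. That gave 4 groups of 3 samples: Huh-7 si-NC, Huh-7 si-CENPU, MHCC-97H si-NC and MHCC-97H si-CENPU. The labels name neither the hours after transfection nor whether replicates were cultured apart. A p-value here therefore weighs a difference against the variation among 3 samples, part of which may be technical.

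Entry into mitosis is driven by the kinase CDK1 bound to B-type cyclins, which CDC25 phosphatases switch on. Aurora kinases, kinesins and condensin then build the spindle and compact the chromosomes, the anaphase-promoting complex (APC/C) releases sister chromatids, and a contractile ring divides the cell. Transcripts of these genes peak in G2 and mitosis through the MuvB complex with B-Myb (MYBL2) and FOXM1, so their level in a culture is a familiar readout of how many cells are cycling. In hepatocellular carcinoma many of them belong to the known proliferation signature.

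The promoters of these genes are known for 2 short elements, the CCAAT box bound by NF-Y and the CHR element (TTTGAA) bound by the MuvB complex. RefSeq promoter windows of GRCh38.p14, 250 bases before to 50 after the first listed start of a gene, were matched by symbol for 44 of the 51 genes. AURKA, BIRC5, UBE2C, TPX2, FOXM1, RACGAP1 and HMGB2 had no matched window. The windows below are shown to set windows that hold the letters of both elements (CDK1, CKS2 and CEP55) beside one that holds neither (CDC25C). Whether these letters are the working elements of the gene was not tested. Bases just after the window's start site were found in a GENCODE transcript of the gene for 35 of 44 windows, among them CDK1, CKS2 and CDC25C but not CEP55, and other start sites of a gene were not searched. Only the 250 bases before the start are printed, 5′ to 3′ on the gene's strand, and capitals mark the letters of both elements on either strand.
CDK1 (chr10:60778081-60778330, plus strand): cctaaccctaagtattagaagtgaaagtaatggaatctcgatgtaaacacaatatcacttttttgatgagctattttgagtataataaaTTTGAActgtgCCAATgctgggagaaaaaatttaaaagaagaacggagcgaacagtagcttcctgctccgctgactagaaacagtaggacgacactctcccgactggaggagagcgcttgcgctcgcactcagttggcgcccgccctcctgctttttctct
CKS2 (chr9:89310945-89311194, plus strand): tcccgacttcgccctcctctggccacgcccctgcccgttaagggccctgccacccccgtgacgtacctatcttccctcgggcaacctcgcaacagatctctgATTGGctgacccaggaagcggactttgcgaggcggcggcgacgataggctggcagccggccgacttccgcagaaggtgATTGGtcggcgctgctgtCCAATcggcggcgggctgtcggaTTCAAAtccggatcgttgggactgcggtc
CEP55 (chr10:93496362-93496611, plus strand): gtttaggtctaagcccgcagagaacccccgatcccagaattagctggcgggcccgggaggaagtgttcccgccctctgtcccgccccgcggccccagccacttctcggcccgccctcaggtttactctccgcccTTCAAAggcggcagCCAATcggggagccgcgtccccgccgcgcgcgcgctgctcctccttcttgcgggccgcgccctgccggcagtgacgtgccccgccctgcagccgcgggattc
CDC25C (chr5:138338356-138338605, minus strand): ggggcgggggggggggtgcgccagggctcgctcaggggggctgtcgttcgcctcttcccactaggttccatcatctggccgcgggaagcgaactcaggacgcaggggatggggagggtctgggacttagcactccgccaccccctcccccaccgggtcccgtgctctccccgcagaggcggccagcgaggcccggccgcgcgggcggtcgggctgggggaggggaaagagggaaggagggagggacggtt

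Over the whole windows, searched on both strands, CCAAT was present in 34 of 44 member promoters (77.3%), against 35.7% of 27305 promoters of the same length. TTTGAA was present in 30 of 44 (68.2%) against 15.4%. Both were present in 25 of 44 (56.8%) against 6.08%. Matches of the 2 motifs can share at most 1 letter. In CKS2 the 3 matches began 148, 70 and 52 bases before the start, and the TTCAAA lay downstream of all of them. A match is a run of letters and not a shown binding site, and no match says only that the letters are absent from the window.

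The knockdown was checked in the targeted gene. CENPU (chromosome 4, 184694618 to 184734133, GRCh38) was listed in Huh-7 at 0.56, 0.84 and 0.53 TPM in controls against 0.17, 0.11 and 0.45 TPM in treated samples. The MHCC-97H values were 1.17, 0.83 and 0.89 against 0.22, 0.45 and 0.24 TPM. Group means were 62.2% and 68.5% lower, and in neither line did the groups overlap. The two-sided exact permutation p was 0.1 in each line, the smallest that 3 against 3 samples can give, and values this near 0 may be poor estimates.

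Some facts of the libraries touch every result. TPM keeps no read depth, so the depth behind these values is unknown. Liver markers (10 fixed genes, among them ALB, AFP and APOA1) averaged at least 1 TPM for 10 of 10 in Huh-7, where they summed to between 6663 and 7589 TPM per library. In MHCC-97H it was 0 of 10, summing to between 0.68 and 1.73 TPM, with APOB at 0 in every library. These liver genes were thus at or near 0 in the line labelled MHCC-97H. Fibroblast markers summed to at most 7.36 TPM, endothelial markers to at most 0.68 TPM and erythroid markers to at most 1.53 TPM in any library. Leukocyte markers summed to 47.08 to 72.09 TPM in Huh-7 and 17.5 to 20.27 TPM in MHCC-97H. The part of such cells in the results was not tested. An exact 0 in this table can be a failed estimate: 191 genes lay under 1 TPM in all 6 Huh-7 libraries and over 10 TPM in all 6 MHCC-97H libraries, and 232 the other way round. The 191 included HMGB2 and CDK1, and also genes that cells in general use, picked after their values were seen. MT-CO2, a mitochondrial respiratory subunit, read 0 to 0.04 TPM in Huh-7 and 6936 to 10056 TPM in MHCC-97H. CCT3, HDAC1 and SDHA were at most 0.7 TPM in any Huh-7 library.

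No G2/M or mitosis gene passed the test after CENPU knockdown in Huh-7. With limma, 0 of 44 tested members were called at an adjusted p below 0.05, where 0.00902% of the 11088 tested genes were called. At an unadjusted p below 0.05 it was 0 of 44 members, against 4.57% of all tested genes. For 0 of 51 members (0 of 44 tested) did the 3 si-CENPU libraries lie wholly above or below the 3 si-NC libraries, against 7.65% of tested genes. Differences of means on the log2(TPM + 1) scale were positive for 21 members and negative for 23, with a median of -0.01, where all tested genes had a median of 0.01. They ran from -0.77 (BIRC5) to 0.61 (SMC2). The 95% confidence interval lay within 1 of no change on the log2(TPM + 1) scale for 40 of 44 members, against 10121 of 11088 tested genes. Its median half-width was 0.46 on that scale. For genes near 0, such as HMGB2 (si-CENPU over si-NC by group means, 0.21), this is not a 2-fold limit on TPM. The 1 added to each TPM pulls genes near 0, CDK1 among them, towards no change. The median moved with single libraries, to -0.12 without si-NC replicate 1 (12 of 44 positive) and to 0.10 without si-NC replicate 2 (31 of 44 positive).

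The Huh-7 members nearest to the threshold were scattered over roles. SMC2, an ATPase subunit of condensin, stood at 0.25, 1.75 and 1.41 TPM in controls against 1.31, 2.58 and 2.59 TPM in treated samples. The first si-NC library was far below the other 5, and the groups overlapped. The difference was 0.61 ± 0.30 (SE; limma adjusted p = 1). PTTG1, the securin that holds separase inactive, read 62.32, 117.14 and 105.62 against 107.79, 123.99 and 134.27 TPM, a difference of 0.40 ± 0.21 (SE; limma adjusted p = 1). CKS2, a small subunit of CDK complexes, read 34.06, 94.66 and 82.8 against 93.77, 89.99 and 110.38 TPM (0.59 ± 0.32, SE; limma adjusted p = 1). For each of these 3 genes Huh-7 si-NC replicate 1 was the lowest of the 6 libraries, and the groups overlapped.

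On the negative side in Huh-7, BIRC5, the passenger subunit survivin, was listed at 0, 3.74 and 0.14 TPM in controls against 0.08, 0 and 0 TPM in treated samples. One si-NC library carried the whole difference (-0.77 ± 0.46, SE; limma adjusted p = 1). PRC1, which bundles the microtubules of the spindle midzone, read 8.62, 7.88 and 8.32 against 8.65, 5.23 and 6.33 TPM (-0.28 ± 0.18, SE; limma adjusted p = 1). HMGB2, a chromatin protein, stayed under 0.7 TPM in all 6 libraries, at 0.08, 0.37 and 0.69 against 0.07, 0.07 and 0.1 TPM (limma adjusted p = 1). CDK1 itself was listed at 0 in all 3 si-NC libraries and at 0.22, 0.38 and 0 TPM with si-CENPU, so no change is given for it.

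In MHCC-97H, where the genes are more abundant, again 0 of 44 members were called with limma (all tested genes, 0.00902%), and 0 of 44 had an unadjusted p below 0.05 (3.42%). The libraries of the 2 groups were apart for 0 of 51 members and 0 of 44 tested ones (6.95% of tested genes). Of the 44 differences 9 were positive and 35 negative, with a median of -0.10, beside -0.05 for all tested genes. The range was -0.39 (UBE2S) to 0.12 (MYBL2). On the log2(TPM + 1) scale 42 of 44 intervals lay within 1 of no change, against 10237 of 11088 tested genes. Of all tested genes 34.9% were positive. The sign of the members' median depended on single libraries. Without si-CENPU replicate 3 the members' median was 0.01 with 26 of 44 positive, and without si-NC replicate 3 it was -0.27 with 1 of 44 positive.

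CEP55, which acts in the final cut between daughter cells, had 7.97, 5.99 and 3.83 TPM in controls against 4.73, 4.99 and 4.35 TPM in treated samples (-0.24 ± 0.21, SE; limma adjusted p = 1). ANLN, a scaffold of the contractile ring, read 11.91, 9.84 and 6.72 against 8.32, 7.83 and 7.07 TPM (-0.23 ± 0.21, SE; limma adjusted p = 1). In both genes the si-CENPU values fell inside the spread of the si-NC values. SMC4, the partner of SMC2, read 7.03, 6.59 and 5.24 against 5.23, 6.15 and 3.76 TPM (-0.28 ± 0.26, SE; limma adjusted p = 1). ESPL1, the protease separase, read 7.42, 8.76 and 6.71 against 7.39, 7.74 and 4.78 TPM (limma adjusted p = 1). KIF11, the motor that pushes spindle poles apart, read 2.88, 2.29 and 1.64 against 2.18, 2.11 and 1.26 TPM (limma adjusted p = 1). Replicate 3 was the lowest of its group for all 5 of these genes, in si-NC and si-CENPU alike.

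UBE2S, the E2 enzyme that extends ubiquitin chains on APC/C substrates, had 1 library apart. In MHCC-97H its controls had 923.54, 939.61 and 623.19 TPM and its treated samples 325.8, 844.94 and 879.75 TPM. The difference of -0.39 ± 0.37 (SE; limma adjusted p = 1) became 0.08 without si-CENPU replicate 1. UBE2S lies opposite RPL28, a ribosomal protein gene at 3358 and 3607 TPM on average in Huh-7 and MHCC-97H, and whether the counting used strand is not stated, so that reads of the overlapping pair cannot be told apart. In all, 12 of 51 members overlapped another annotated gene of at least 1 TPM.

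**Figure D1:**
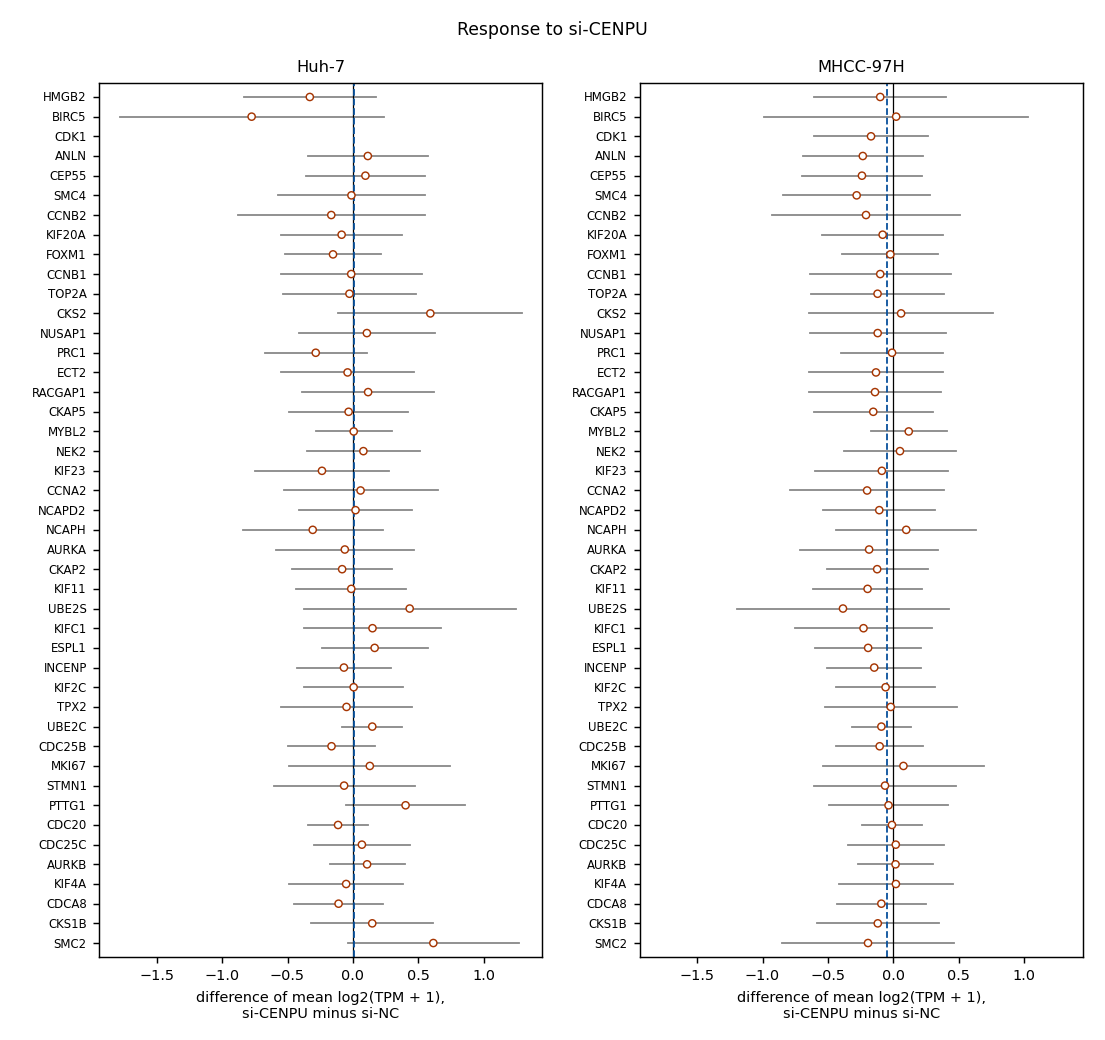
Difference of mean log2(TPM + 1), si-CENPU minus si-NC, in Huh-7 (left) and MHCC-97H (right), for the 44 tested members ordered by their line difference. Open circles are estimates with an adjusted p of 0.05 or more, lines are 95% confidence intervals and dashed lines the median of all tested genes. No point is filled, and CDK1 has no value in Huh-7, where its si-NC libraries are at 0.

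The response did not differ detectably between the lines. With limma, 0 of 44 members were called for the difference of responses (all tested genes, 0.00902%), 0 of 44 had an unadjusted p below 0.05 (3.45%), and the smallest adjusted p was 0.999. The estimates nearest to the threshold were SMC2 (-0.81 ± 0.42, SE; limma adjusted p = 0.999), UBE2C, the E2 enzyme that starts ubiquitin chains for the APC/C (-0.24 ± 0.15, SE; limma adjusted p = 0.999), and UBE2S (-0.82 ± 0.52, SE; limma adjusted p = 0.999). UBE2C read 165.94, 176.22 and 175.74 against 161.99, 216.09 and 199.74 TPM in Huh-7, and 309.8, 343.72 and 294.33 against 306.64, 300.8 and 280.36 TPM in MHCC-97H. CDK1 was the fourth by p and gets no value, being at 0 in Huh-7 si-NC. The 95% interval of the difference lay within 1 of no difference on the log2(TPM + 1) scale for 33 of 44 members. For the rest it reached beyond that, and among all tested genes 8340 of 11088 lay within. No member had its si-CENPU libraries apart from si-NC in the same direction in both lines, where 0.406% of tested genes were apart upward and 0.28% downward.

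Most of the genes were more abundant in MHCC-97H than in Huh-7. With si-NC, 42 of 44 tested members were called higher in MHCC-97H than in Huh-7 and 0 lower (limma), where 50.1% of all tested genes were called higher and 22.9% lower. All 44 estimates were positive. The members' median difference was 1.31, beside 0.49 for all tested genes. The median ratio of si-NC means was 3.45 (quartiles 2.2 and 4.67, 50 members, CDK1 having no ratio). A mean level can pass the expression filter through MHCC-97H alone, and without any filter 49 of 51 members were called higher, against 24.6% of 30267 genes. In bulk RNA, fewer cells in G2 and mitosis and less of each RNA per cell cannot be told apart.

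**Figure D2:**
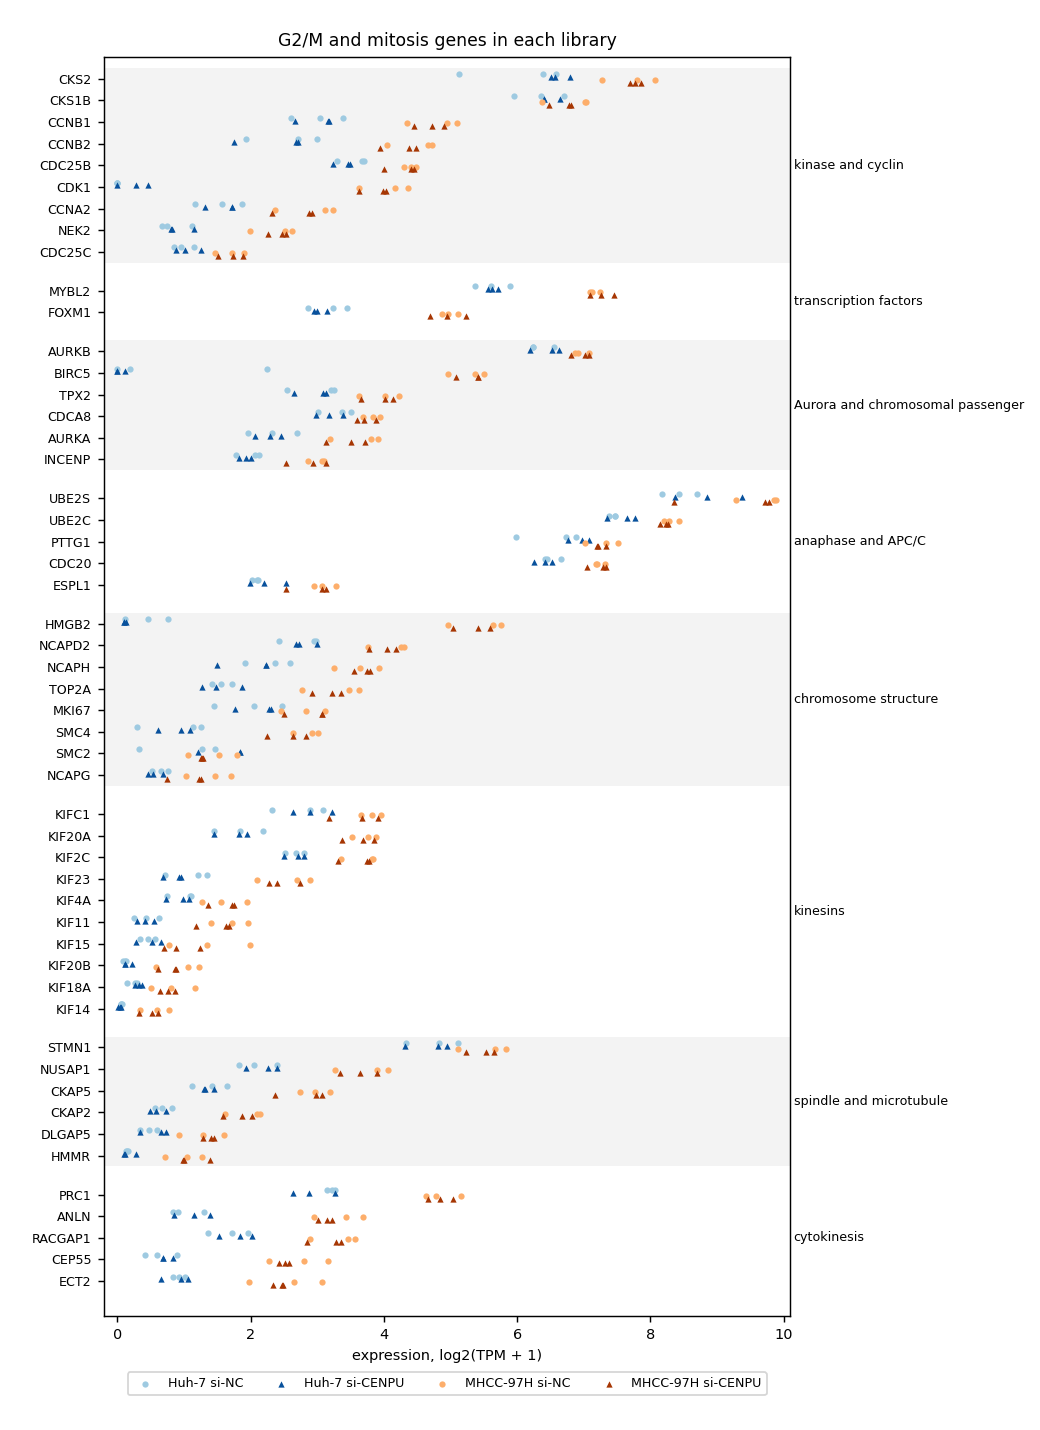
Expression of all 51 members in each of the 12 libraries, as log2(TPM + 1), grouped by role and ordered within a role by level in MHCC-97H. Circles are si-NC and triangles si-CENPU libraries, blue Huh-7 and orange to brown MHCC-97H. Within a line circles and triangles mix, and for 42 of 51 members all MHCC-97H points lie right of all Huh-7 points.

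All 6 MHCC-97H libraries lay above all 6 Huh-7 libraries for 42 of 51 members. Among tested members it was 36 of 44, against 42.2% of all tested genes. MKI67, UBE2S, PTTG1, ESPL1, KIFC1, NCAPG, SMC2, CKS1B and STMN1 overlapped. Compared over the si-CENPU samples instead, 40 of 44 members were called higher (all tested genes, 46.2%), and over both treatments 42 (53.8%). The size depended on the scaling of the libraries. A trimmed-mean scaling moved the median of all tested genes from 0.49 to 0.00 and the members' median to 0.89. It left 32 of 44 called higher (33.7% of all tested genes) and 0 lower, with AURKB, CDCA8 and CKS1B below 0. CDC20, CDC25B, MKI67, UBE2C, UBE2S, PTTG1, KIF4A, SMC2 and STMN1 were the others not called there. Quantile scaling called 38 members higher (39.1% of all tested genes), with a median of 1.01 beside 0.13 for all genes.

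**Figure D3:**
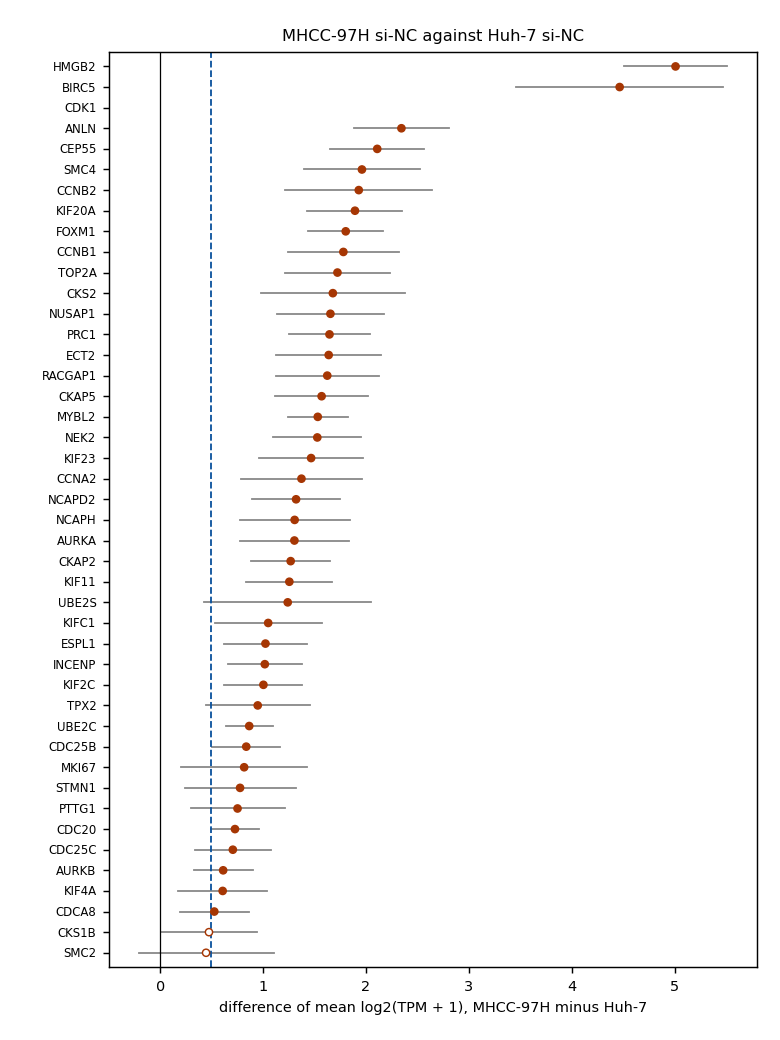
Difference of mean log2(TPM + 1), MHCC-97H si-NC minus Huh-7 si-NC, for the tested members, with 95% confidence intervals. Filled points have a limma adjusted p below 0.05, open points do not (SMC2 and CKS1B), and the dashed line is the median of all tested genes, 0.49. CDK1 is called but not drawn, being at 0 in all Huh-7 si-NC libraries.

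Of the kinase and cyclin genes, 8 of 9 were called higher in MHCC-97H. CCNB1, the main mitotic cyclin, read 5.11, 9.46 and 7.23 TPM in Huh-7 controls against 33.05, 29.85 and 19.32 TPM in MHCC-97H controls, 3.77 times as much by group means (log2 difference 1.78 ± 0.24, SE; limma adjusted p = 5.05e-05). CCNB2, its relative, read 2.82, 6.96 and 5.56 against 25.28, 24.43 and 15.54 TPM (1.93 ± 0.33, SE; limma adjusted p = 0.000249). Both cyclins were above 2 TPM in every Huh-7 library, with no overlap between lines. Their kinase was listed at or near 0 there. CDK1 (ENSG00000170312, chromosome 10, 60778331 to 60794852) was at 0 in 4 of 6 Huh-7 libraries and at most 0.38 TPM in the other two, against 19.46, 16.97 and 11.39 TPM in MHCC-97H controls and 15.31, 14.89 and 11.31 TPM after knockdown. CDK1 is listed at 0 in Huh-7 si-NC, so no fold is given.

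NEK2, a kinase that splits centrosomes before mitosis, read 0.68, 1.18 and 0.59 against 5.13, 4.72 and 2.98 TPM, a log2 difference of 1.53 ± 0.19 (SE; limma adjusted p = 2.75e-05). CCNA2, the cyclin of S phase and early mitosis, went from 1.95 ± 0.70 to 6.75 ± 2.30 TPM (SD, n = 3). The CDC25 phosphatases differed less: CDC25B from 10.9 ± 1.74 to 20.1 ± 1.38 TPM and CDC25C from 0.99 ± 0.22 to 2.26 ± 0.49 TPM (SD, n = 3). CKS1B, a CDK subunit that also serves in the degradation of a CDK inhibitor, was the kinase-group gene that missed the threshold, at 60.66, 103.2 and 80.89 against 130.06, 128.56 and 82.12 TPM (0.47 ± 0.21, SE; limma adjusted p = 0.0617). It passed without Huh-7 si-NC replicate 2 (0.66) or without MHCC-97H si-NC replicate 3 (0.69), and lay below 0 with trimmed-mean scaling (-0.16).

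Both transcription factors of the programme were higher. FOXM1 (ENSG00000111206, chromosome 12, 2857681 to 2877155) read 6.28, 8.42 and 9.86 TPM in Huh-7 controls against 30.3, 33.59 and 28.28 TPM in MHCC-97H controls (1.80 ± 0.17, SE; limma adjusted p = 1.75e-06). MYBL2 (ENSG00000101057, chromosome 20, 43667019 to 43716496) read 40.27, 47.68 and 58.36 against 138.8, 150.35 and 135.35 TPM (1.53 ± 0.13, SE; limma adjusted p = 9.17e-07). After si-CENPU they stood at 6.7, 6.94 and 7.87 TPM and at 48.09, 46.02 and 51.26 TPM in Huh-7, inside or beside the si-NC values. The MHCC-97H si-CENPU values were 29.91, 36.62 and 24.96 TPM for FOXM1 and 152.49, 174.6 and 135.48 TPM for MYBL2, which overlapped si-NC as well.

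The 6 Aurora and chromosomal passenger genes were all called higher, with unequal sizes. AURKA, the kinase of the spindle poles, went from 4.14 ± 1.31 to 11.7 ± 3.15 TPM and its activator TPX2 from 7.21 ± 2.03 to 14.7 ± 3.23 TPM (SD, n = 3). AURKB, the kinase of the passenger complex, read 74.5, 74.26 and 92.48 against 119.17, 134.32 and 115.7 TPM (0.61 ± 0.13, SE; limma adjusted p = 0.00133), a sign that trimmed-mean scaling turned (-0.02). Its partner BIRC5 (ENSG00000089685, chromosome 17, 78214186 to 78225636) went from 0, 3.74 and 0.14 TPM to 44.12, 40.39 and 30.28 TPM (4.47 ± 0.46, SE; limma adjusted p = 4.4e-06). INCENP, the scaffold, read 2.44, 3.18 and 3.38 against 7.58, 7.4 and 6.25 TPM. CDCA8, borealin, went from 8.90 ± 1.68 to 13.2 ± 1.24 TPM (SD, n = 3). In Huh-7 the complex was thus listed with 3 members between 2.44 and 97.6 TPM in every library and 1 member, BIRC5, at or near 0 in 5 of 6.

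Anaphase genes included the most abundant members, and their median difference, 0.87, was the lowest of the 8 roles. UBE2S, UBE2C, PTTG1 and CDC20 were the 4 highest in Huh-7, with means over 6 libraries of 416.5, 182.6, 108.5 and 86.8 TPM. In MHCC-97H the top 4 were UBE2S, UBE2C, CKS2 and PTTG1 at 756.1, 305.9, 215.8 and 154.0 TPM. The level, rank and line difference of UBE2S carry the limit of its overlap with RPL28 given above. CDC20, which activates the APC/C in mitosis, read 84.46, 85.96 and 100.38 against 144.93, 157.95 and 146.39 TPM with si-NC (0.73 ± 0.10, SE; limma adjusted p = 7.25e-05). UBE2C differed by 0.87 ± 0.10 (SE; limma adjusted p = 1.62e-05), UBE2S by 1.24 ± 0.37 (SE; limma adjusted p = 0.0101) and PTTG1 by 0.75 ± 0.21 (SE; limma adjusted p = 0.00666). None of these 4 was called with trimmed-mean scaling, where they stood at 0.09 to 0.60. ESPL1 went from 3.23 ± 0.16 to 7.63 ± 1.04 TPM (SD, n = 3).

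On the log2(TPM + 1) scale, chromosome structure genes held the largest and the smallest differences among tested members. HMGB2 (ENSG00000164104, chromosome 4, 173331695 to 173335125) read 0.08, 0.37 and 0.69 TPM in Huh-7 controls against 53.17, 48.55 and 30.17 TPM in MHCC-97H controls (5.01 ± 0.23, SE; limma adjusted p = 3.18e-09). The si-CENPU libraries read no more than 0.1 TPM in Huh-7 and 31.91 to 47.3 TPM in MHCC-97H. HMGB2 was among the members that passed the filter through MHCC-97H alone, with a mean of 0.23 TPM in Huh-7. Values this near 0 may be poor estimates, which further libraries of the same line cannot decide. TOP2A, the topoisomerase that untangles sister chromatids, went from 1.98 ± 0.32 to 9.10 ± 2.90 TPM, and MKI67, whose protein Ki-67 coats mitotic chromosomes, from 3.13 ± 1.42 to 6.10 ± 1.59 TPM (SD, n = 3). SMC4 read 0.23, 1.39 and 1.19 against 7.03, 6.59 and 5.24 TPM (1.96 ± 0.26, SE; limma adjusted p = 3.3e-05). SMC2 with 0.25, 1.75 and 1.41 against 2.47, 1.89 and 1.09 TPM was not called (0.45 ± 0.30, SE; limma adjusted p = 0.195). The condensin I subunits NCAPD2 and NCAPH went from 6.01 ± 1.44 to 16.5 ± 3.37 TPM and from 3.99 ± 1.12 to 11.4 ± 2.84 TPM (SD, n = 3).

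Mitotic kinesins were mostly scarce. Of 10, 6 were tested and all 6 were called higher. On the log2(TPM + 1) scale KIF20A, a motor of the spindle midzone, differed most of the 6, with 1.73, 3.56 and 2.59 against 12.61, 13.7 and 10.46 TPM (1.89 ± 0.21, SE; limma adjusted p = 8.48e-06). By the ratio of si-NC means KIF11 differed more, 6.31 times against 4.67 times for KIF20A. KIF23, the motor of centralspindlin, went from 1.17 ± 0.47 to 5.05 ± 1.61 TPM, KIF11 from 0.36 ± 0.18 to 2.27 ± 0.62 TPM, and the microtubule depolymerase KIF2C from 5.37 ± 0.62 to 11.9 ± 2.28 TPM (SD, n = 3). The scarcest member in both lines was a kinesin. KIF14, a motor of late cytokinesis, read 0.04, 0.04 and 0.05 TPM in Huh-7 controls against 0.71, 0.51 and 0.27 TPM in MHCC-97H controls. KIF20B read 0.06, 0.08 and 0.1 against 1.34, 1.09 and 0.5 TPM, and KIF18A, which keeps chromosomes centred, 0.11, 0.23 and 0.2 against 1.24, 0.75 and 0.42 TPM. Of the 7 members under the filter, 6 had all MHCC-97H libraries above all Huh-7 libraries, NCAPG being the exception. The share among other genes under the filter was not computed, so no result is read from this count.

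Among spindle genes 4 of 6 were tested and 4 were called higher. NUSAP1, which binds spindle microtubules, went from 3.31 ± 0.88 to 12.8 ± 3.73 TPM, the microtubule polymerase CKAP5 from 1.66 ± 0.48 to 6.86 ± 1.24 TPM, and CKAP2 from 0.61 ± 0.14 to 2.92 ± 0.74 TPM (SD, n = 3). STMN1, which destabilises microtubules and is not confined to mitosis, read 19.07, 33.72 and 27.53 against 55.75, 49.91 and 33.61 TPM, with 1 value of each group overlapping (0.78 ± 0.24, SE; limma adjusted p = 0.0138). HMMR, below the filter, read 0.1, 0.12 and 0.11 against 1.41, 1.07 and 0.64 TPM.

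All 5 cytokinesis genes were called higher, with log2 differences of 1.62 to 2.35. ANLN read 0.78, 1.46 and 0.88 TPM in Huh-7 controls against 11.91, 9.84 and 6.72 TPM in MHCC-97H controls, 9.13 times as much by group means (2.35 ± 0.21, SE; limma adjusted p = 1.29e-06). CEP55 read 0.51, 0.86 and 0.34 against 7.97, 5.99 and 3.83 TPM (2.11 ± 0.21, SE; limma adjusted p = 3.05e-06). PRC1 read 8.62, 7.88 and 8.32 against 34.71, 26.59 and 23.77 TPM (1.65 ± 0.18, SE; limma adjusted p = 6.59e-06). ECT2, the exchange factor that switches on RhoA at the division plane, and RACGAP1, the centralspindlin subunit that recruits it, went from 0.91 ± 0.12 to 5.21 ± 2.23 TPM and from 2.25 ± 0.68 to 9.07 ± 2.31 TPM (SD, n = 3).

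Pairs of related genes showed where the lines differed within a complex or family. The log2 ratio of the first gene to the second, as a difference of log2(TPM + 1), was compared between lines in 6 pairs with an exact permutation test within treatments (400 relabelings, two-sided) and adjusted over the 6. For condensin's SMC2 and SMC4, SMC2 was the higher in 6 of 6 Huh-7 libraries, by 1.09 to 4.96 times, and in 0 of 6 MHCC-97H libraries, where it was 0.208 to 0.37 of SMC4 (difference -1.78; exact permutation p = 0.005, adjusted p = 0.015). For CKS1B and CKS2 the TPM ratio was 0.889 to 1.78 in Huh-7 and 0.382 to 0.58 in MHCC-97H (difference -1.07; exact permutation p = 0.005, adjusted p = 0.015). CKS2 itself read 34.06, 94.66 and 82.8 against 266.68, 221.51 and 153.82 TPM with si-NC. A p of 0.005 is the smallest these relabelings can give.

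**Figure D4:**
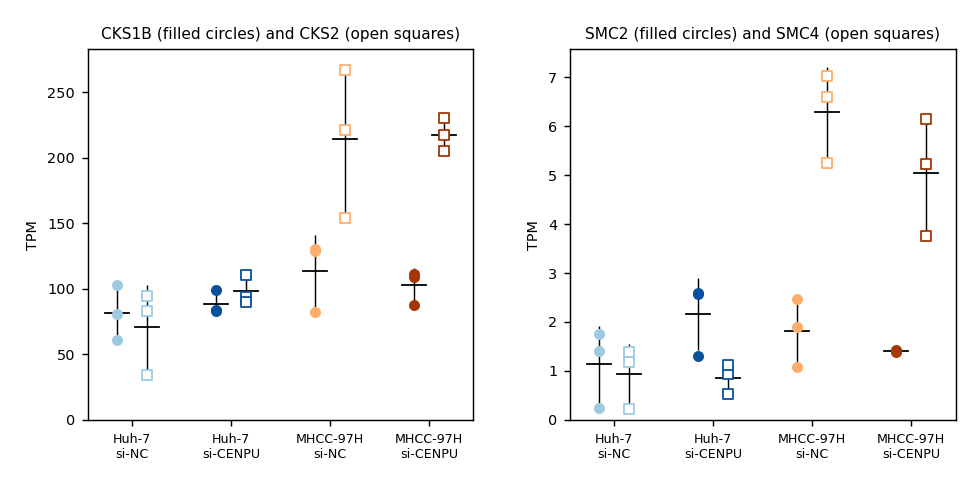
TPM of CKS1B and CKS2 (left) and of SMC2 and SMC4 (right) in each library, by group, with the group mean (bar) and SD (line). In the MHCC-97H groups the open squares stand above the filled circles, and in the Huh-7 groups they lie near or below them.

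AURKA stood closer to AURKB in MHCC-97H, at 0.0695 to 0.109 of it, than in Huh-7, at 0.0349 to 0.0742 (difference 0.68; exact permutation p = 0.01, adjusted p = 0.015). On the log2(TPM + 1) scale NCAPG was lower against NCAPH in MHCC-97H than in Huh-7, by -0.87 (exact permutation p = 0.01, adjusted p = 0.015). The TPM ratios overlapped, at 0.0637 to 0.199 in MHCC-97H and 0.106 to 0.247 in Huh-7. With si-NC both genes differed alike between lines, 2.959 times for NCAPG and 2.845 times for NCAPH by group means. NCAPG averaged 0.52 TPM in Huh-7, where the added 1 weighs most. A pseudocount of 0.1 ended the call (-0.52, exact permutation adjusted p = 0.114). CCNB1 exceeded CCNB2 in all 12 libraries, by 1.3 to 2.24 times in Huh-7 and 1.22 to 1.45 times in MHCC-97H (difference -0.17; exact permutation p = 0.045, adjusted p = 0.054). That pair passed the threshold in 5 of 15 alternatives: with a pseudocount of 0.1 (-0.26; exact permutation, adjusted p = 0.03) or 0.5 (-0.21; exact permutation, adjusted p = 0.03), with GC correction (-0.19; exact permutation, adjusted p = 0.03), and without Huh-7 si-NC replicate 3 or Huh-7 si-CENPU replicate 3 (-0.21 each; exact permutation, adjusted p = 0.03 and 0.036). For CDC25B and CDC25C the difference was 0.18 (exact permutation p = 0.13, adjusted p = 0.13). It passed after a correction for transcript GC content (0.48; exact permutation, adjusted p = 0.0167) and turned sign with a pseudocount of 0.1 (-0.14).

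Members near 0 in Huh-7 weigh on these values. In Huh-7 si-NC, 9 of 51 members averaged under 0.5 TPM (CDK1, KIF11, KIF14, KIF15, KIF18A, KIF20B, HMMR, DLGAP5 and HMGB2), and CDK1 and BIRC5 were at exact 0 in some libraries. Of these 9 only CDK1, KIF11 and HMGB2 were tested. Without them 39 of 41 tested members were called higher, with a median of 1.31, which so small a removal could hardly move. BIRC5 stayed in, its Huh-7 si-NC mean of 1.29 TPM resting on 1 library at 3.74 TPM. Over all Huh-7 libraries, CDK1, HMGB2, BIRC5, CEP55, CKAP2, KIF11, NEK2, ECT2, SMC4, KIF4A and KIF23 averaged under 1 TPM. These members passed the filter only through MHCC-97H, so for them filter and call rest on the same difference between lines. The removal above took out only CDK1, KIF11 and HMGB2. PLK1, the polo kinase that is no member, was like CDK1, at 0 to 0.31 TPM in Huh-7 and 58.91 to 82.91 TPM in MHCC-97H. So was the kinetochore gene CENPF, at 0 in all 6 Huh-7 libraries and 5.62 to 12.73 TPM in MHCC-97H.

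Other genes of the cycle were set beside the members from 4 fixed lists. Of APC/C subunits and inhibitors, 9 of 15 tested genes were called higher in MHCC-97H si-NC and 1 lower (limma). Beside the 50.1% and 22.9% of all tested genes, the share called higher was near the background for this list. The lower one was ANAPC11, the RING subunit (923.8 ± 79.9 against 566.1 ± 19.1 TPM; SD, n = 3), and ANAPC15 was among the higher (20.9 ± 1.57 against 70.9 ± 13.1 TPM; SD, n = 3). Of genes that control CDK1 and exit from mitosis, 11 of 14 were higher and 1 lower. The lower was the phosphatase PPP1CA (982.2 ± 79.9 against 240.1 ± 16.3 TPM; SD, n = 3), and PKMYT1, which inhibits CDK1, was among the higher (26.7 ± 2.11 against 85.8 ± 7.91 TPM; SD, n = 3). Of the MuvB and DREAM genes and their partners, 9 of 12 were higher, with TFDP1 from 35.0 ± 0.54 to 114.3 ± 14.8 TPM (SD, n = 3), and 1, LIN37, was lower. E2F4 read 8.69, 13.93 and 13.31 against 36.08, 37.49 and 31.33 TPM. Of 34 further mitotic genes 25 were higher and 1, the condensin II subunit NCAPH2, was lower. Median differences were 0.71, 1.17, 0.998 and 1.15 over the 4 lists, beside 1.31 over the members and 0.49 over all tested genes.

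After CENPU knockdown 0 genes of the 4 lists were called in either line (limma). In Huh-7, 3 genes had an unadjusted p below 0.05, where 4.57% of all tested genes had one, and no result is read from them. They were LIN37, a MuvB subunit (-0.45 ± 0.17, SE; limma adjusted p = 1), PIMREG (0.20 ± 0.09, SE; limma adjusted p = 1) and, at no more than 0.83 TPM, WEE1, the kinase that holds CDK1 inactive (-0.50 ± 0.23, SE; limma adjusted p = 1). In MHCC-97H, where 3.42% of all tested genes had one, there was E2F5 (-0.50 ± 0.21, SE; limma adjusted p = 1), with 3.18, 1.89 and 1.87 against 1.31, 1.17 and 1.43 TPM.

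Members shifted between libraries of a line, and in the 4 libraries given here the median of all tested genes shifted the same way by less. In MHCC-97H si-NC replicate 3, 0 of 44 tested members lay above the mean of their line, with a median deviation of -0.30 on the log2 scale, beside -0.11 for all tested genes. In replicate 1 of the same group 39 of 44 lay above it, with a median of 0.28, beside 0.11 for all tested genes. In Huh-7, si-NC replicate 1 had 4 of 44 members above the line mean (median -0.24, all tested genes -0.175) and si-CENPU replicate 3 had 37 (median 0.15, all tested genes 0.084). The summed TPM of the 51 members ran from 971.6 to 1597 in Huh-7 and from 2031 to 2795 in MHCC-97H, between 0.0973% and 0.28% of all TPM.

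**Figure D5:**
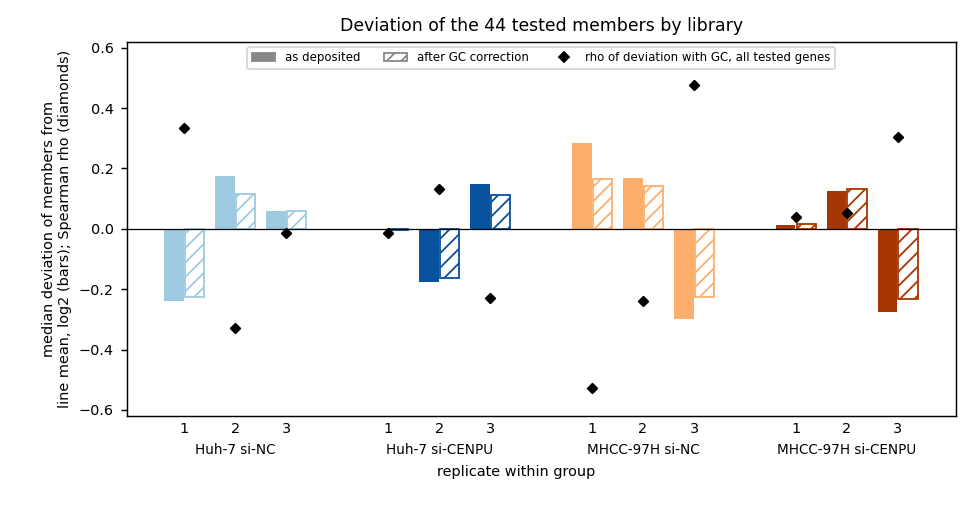
Median deviation of the 44 tested members from the mean of their line in each library, log2 scale, as deposited (filled bars) and after correction for transcript GC content (hatched bars). Diamonds are the Spearman rho between deviation and GC content over all tested genes. In MHCC-97H si-NC replicate 3 members are low and rho is positive (-0.30 and 0.48) and in replicate 1 the reverse holds (0.28 and -0.53), while in MHCC-97H si-CENPU replicate 2 members are high with rho near 0 (0.125 and 0.05).

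Part of these shifts was seen beside the GC content of transcripts, the share of G and C bases. Over all tested genes the Spearman rho between deviation and GC content was 0.48 in MHCC-97H si-NC replicate 3, -0.53 in replicate 1 and 0.34 in Huh-7 si-NC replicate 1. It was 0.05 in MHCC-97H si-CENPU replicate 2, where members were nonetheless 0.125 above the line mean. After a correction for GC content the members' median went from 0.28 to 0.163 in MHCC-97H si-NC replicate 1 and from -0.30 to -0.227 in replicate 3. It stayed about as large in Huh-7 si-NC replicate 1 (-0.239 to -0.228), Huh-7 si-CENPU replicate 2 (-0.175 to -0.162) and MHCC-97H si-CENPU replicate 2 (0.125 to 0.131). Member transcripts had a median GC content of 46.4%, against 52.6% for the other tested genes. Correcting each library for GC content lowered the members' median within-group SD from 0.28 to 0.23, and lowered it for 34 of 44 members (77.3%), against 54.0% of all tested genes (median 0.230 to 0.223). After the correction the members were called 0, 0 and 42 times in Huh-7, MHCC-97H and between the lines. Of all tested genes 1 and 0 were called in the knockdown contrasts, and 49.4% were called higher between the lines. The members' medians were -0.02, -0.06 and 1.20, beside 0.01, -0.06 and 0.45 for all tested genes. In MHCC-97H the members' median was thus no lower than that of all tested genes after the correction. What part GC content has in the remaining values was not tested further.

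Members also differed in level by GC content. Across the 51 members the Spearman rho of mean TPM with GC content was 0.68, and with median transcript length -0.39. Over the 44 tested members the first was 0.53, and over 10926 other tested genes 0.35. These points share the same 12 libraries and are a description. UBE2S, UBE2C and PTTG1 were among the 4 highest members in both lines, and KIF14, KIF20B and HMMR among the 4 lowest. For UBE2S the overlap with RPL28 limits this rank. Of 16 near-identical copies of members found in the table, such as pseudogenes of CKS1B, the highest reached 2.48 TPM, in 1 library, so that little signal was listed under the copies.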

How the data were processed

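RNA of 12 samples, 3 in each of 4 groups, was sequenced from libraries made with an Illumina TruSeq RNA kit, per the labels' protocols. The authors deposited 1 table of TPM values for 60664 Ensembl genes. HISAT2, StringTie and GRCh38.p13 are named in the submitters' processing notes, and for the annotation release and strand setting no value is given in the sources used here. Because TPM holds each library to a fixed total, a change in a few abundant genes moves all others, and read depth is unknown.

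Differences were tested on log2(TPM + 1) with limma 3.58.1 in R 4.3.3, with 1 mean per group over all 12 samples, a mean-variance trend and 2-sided tests, in the 11088 genes averaging at least 1 TPM. P-values were adjusted by Benjamini-Hochberg over all tested genes within each contrast, and an adjusted p below 0.05 was called. Ratios of gene pairs were compared by exact permutation of line labels within treatments. Summaries and figures were made with Python 3.11.15, pandas 2.3.3 and matplotlib 3.10.9. The code was tested on simulated data.

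The rule for members uses no measured value, but the members and lists were chosen with earlier results of these data known. Genes were named by smallest p in each contrast, by level, by values at 0, as preset pairs and as transcription factors, and other members stand as group means. Alternatives covered pseudocounts, filters, scalings, transcript GC correction (lowess, span 0.3), the samples fitted, a replicate block, the variance model and each library left out in turn. Leaving out members near 0 in Huh-7, and the alternatives for pairs, were added after seeing the data.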

Additional observations from a re-analysis of the deposited data

How the results depend on the processing

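Counts of called members kept their side under every alternative run. They were 0 in each knockdown contrast under 24 alternatives and in the difference of responses under 23, and 28 (of 29 tested at a mean of at least 5 TPM) to 49 (of 51 without a filter) between the lines under 27. With single libraries left out they ran from 0 to 0 in both knockdown contrasts and in the difference of responses, and from 39 to 43 between the lines. With the replicate number as a block, 0, 0, 0 and 42 members were called. Correlations between same-numbered samples ran from -0.12 to 0.13, with only MHCC-97H replicate 3 above 0.1, so the numbers were not taken to pair the samples. Of 968 values of 41 named gene results, 958 kept direction and call. Signs turned for UBE2S in the MHCC-97H knockdown (-0.63 without MHCC-97H si-CENPU replicate 3 to 0.0815 without replicate 1), for CKS1B (-0.16) and AURKB (-0.0237) between the lines with trimmed-mean scaling, and for the pair CDC25B and CDC25C with a pseudocount of 0.1 (-0.14). The cause was not tested. The pairs SMC2 and SMC4, CKS1B and CKS2, and AURKA and AURKB kept their call in 15 of 15 alternatives each. Read depth is unknown, which limits what can be said of genes near 0.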

Other observations

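FBXO5, an inhibitor of the APC/C and no member, was chosen after its values were seen. It was listed in Huh-7 at 62.19, 0 and 28.88 TPM in controls against 0.69, 27.23 and 0 TPM in treated samples. In MHCC-97H all 6 libraries lay between 1.95 and 4.22 TPM. Libraries of the same Huh-7 group were thus at 0 and far above it.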
